A study of Mus musculus with 15 samples.

Results

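The genes described here are 34 markers and working parts of microglia, the resident macrophages of the brain, followed in mouse hemibrains after 3 diets. They were picked by name, and a gene was represented by the probe that carried its RefSeq accession and had the highest mean processed Cy5 signal among such probes. A probe was found for 33 of the 34 genes, and Cd68 was not analysed here. Lyz2, Cd53 and Spi1 were not well above background on any of the 15 arrays, which left 30 measured genes among 22557 genes tested. Of the 22557, 13763 carried a gene symbol. The rest were single probes without a symbol, and they are counted as genes in every share and median of all genes below. Of the 30 measured microglia genes, Fcgr3 was well above background in Cy5 on 9 arrays and Ptprc on 12, and each of the other 28 on at least 14.

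All animals were male C57BL/6j mice, placed at 3 weeks of age on 1 of 3 diets of like caloric content and kept on it for 24 weeks. The enriched diet (ERD) supplied n-3 and n-6 polyunsaturated fatty acids at a ratio of 7:1, the balanced diet (BLD) at 1:1 and the standard laboratory diet (STD) at 1:6. Total RNA of the left hemibrain was labelled with Cy5 and hybridised against one common reference, RNA of 11 mouse cell lines labelled with Cy3, on 5 arrays per diet. Every value below is a normalized log2 ratio of hemibrain to that reference, so a value of 1 is a ratio of 2 to 1, and diets are compared as differences of these ratios. The labels do not say that the 5 arrays of a diet came from 5 separate animals, and p-values measure the spread between these arrays. A whole hemibrain mixes many cell types, so that fewer microglia and less RNA per microglial cell cannot be told apart.

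Microglia enter the brain early in development and live there as its own macrophages. They sense nucleotides, chemokines and lipids through surface receptors (P2ry12, Cx3cr1, Trem2), tag and take up synapses and debris with complement and phagocytic receptors, and digest what they take up with lysosomal cathepsins. The transcription factors PU.1 (Spi1), Irf8 and Sall1 set up and hold this identity. Long-chain n-3 fatty acids are taken up into brain membranes and are precursors of lipid mediators to which macrophages respond, which is why microglia are of interest in a diet study.

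The promoters of 3 of these genes are shown because Ctsd, Ctss and Trem2 had the lowest p-values of the lysosomal and immune receptor genes between ERD and STD, with Ctsd and Trem2 on one side and Ctss on the other. Each runs from 250 bases before to 50 after the start site in the RefSeq table of build GRCm38.p6, written 5′ to 3′ on the strand of the gene. Capitals mark CACGTG, an E-box of the kind bound by the lysosomal regulator TFEB, and GAGGAA or its reverse complement TTCCTC, the core of PU.1 sites. Both strands were searched, and the marked motifs do not overlap in these windows. Ctsd lies on the minus strand at chr7:142387778-142388077, Ctss on the plus strand at chr3:95526536-95526835 and Trem2 on the plus strand at chr17:48346151-48346450.
Ctsd: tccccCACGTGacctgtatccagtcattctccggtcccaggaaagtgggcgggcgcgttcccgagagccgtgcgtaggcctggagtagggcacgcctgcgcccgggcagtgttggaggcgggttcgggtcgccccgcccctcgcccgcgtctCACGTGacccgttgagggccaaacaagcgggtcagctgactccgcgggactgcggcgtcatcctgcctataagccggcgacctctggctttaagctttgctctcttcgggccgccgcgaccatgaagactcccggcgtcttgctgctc
Ctss: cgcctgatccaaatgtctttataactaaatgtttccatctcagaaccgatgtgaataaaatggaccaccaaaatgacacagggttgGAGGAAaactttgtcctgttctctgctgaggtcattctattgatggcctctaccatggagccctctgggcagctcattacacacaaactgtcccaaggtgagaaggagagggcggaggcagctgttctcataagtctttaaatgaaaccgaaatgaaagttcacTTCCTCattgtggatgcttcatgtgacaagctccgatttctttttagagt
Trem2: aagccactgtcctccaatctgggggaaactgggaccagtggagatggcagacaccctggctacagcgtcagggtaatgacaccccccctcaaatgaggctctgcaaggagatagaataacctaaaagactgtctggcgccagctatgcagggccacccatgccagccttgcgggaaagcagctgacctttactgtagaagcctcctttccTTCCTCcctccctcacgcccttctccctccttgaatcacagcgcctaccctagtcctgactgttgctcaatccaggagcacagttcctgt
The Ctsd window held the E-box at -245 and -98 from the start site, counted to the first base of the motif, and no PU.1 core. The Ctss window held the PU.1 core at -164 and at 0, the start site itself, and the Trem2 window held it at -40. Promoters were found for 27 of the 34 genes, 33 promoters in all. Of these, 17 (51.5%) held the PU.1 core and 3 (9.09%) the E-box, against 28.3% and 7.15% of all 32851 promoters of the table. These matches describe letters in a window and do not show binding.

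The Cy5 signal stood well above background for 17720 (ERD 1) to 31991 spots of an array, and ERD 1 also had the lowest median correlation to the other arrays (0.88). On ERD 1, 22 of the 30 measured microglia genes were above background, against 28 to 30 on every other array. Slides numbered 8 and scan days 2, and on the later of those days were scanned 3 BLD arrays, 1 ERD array and no STD array. In the reference channel P2ry12, P2ry13 and Gpr34 were above background on 0 of the 15 arrays, so their ratios rest on a Cy3 signal near background. Defining genes of brain tissue were present, with the neuronal vesicle gene Syt1 at 8.55 ± 0.23 above the reference in STD and the myelin gene Mag at 5.12 ± 0.29 (SD, n = 5). Of the defining microglial genes, Cx3cr1 was at 4.10 ± 0.16, C1qa at 2.68 ± 0.19 and Tmem119 at 0.26 ± 0.47 in STD. Other microglia genes had an STD mean below the reference, down to -2.33 ± 0.29 for Ptprc. These were Ptprc, Apbb1ip, Fcer1g, Laptm5, Trem2, Tgfbr1, Ctsd, Irf8, Ctss and Fcgr3.

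No microglia gene passed the threshold between any pair of diets. In limma, 0 of 30 had an adjusted p under 0.05 when ERD or BLD was set against STD or ERD against BLD, where 0.217%, 0.00887% and 0% of all genes tested did. The F test for any difference among the diets called 0 of 30 as well, and 0.0488% of all genes. Between ERD and STD, 5 of the 30 (16.7%) had an unadjusted p under 0.05, against 14.6% of all genes. Ctsd, Selplg and Trem2 were higher in ERD (3 of 30, against 6.92% of all genes on that side), and Ctss and Cx3cr1 lower (2 of 30, against 7.64%). Between BLD and STD there were 4 of 30 (13.3%, against 10.7% of all genes), namely Selplg, Ctsd, P2ry12 and Olfml3, all with higher values in BLD, the side on which 7.6% of all genes lay and 3.14% on the other. Between ERD and BLD there were 5 of 30 (16.7%, against 10.4%), with Ctsd higher in ERD (1 of 30, against 2.61% of all genes on that side) and P2ry12, Gpr34, Mertk and Olfml3 lower (4 of 30, against 7.77%). The share of microglia genes below this threshold was thus near that of all genes in the ERD and STD comparison. ERD against STD and BLD against STD share the 5 STD arrays, and ERD against BLD shares arrays with both.

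These counts depended on single arrays. The count for ERD against STD was 8 without ERD 2. That for BLD against STD was 2 without BLD 4 or without STD 5. That for ERD against BLD was 3 without ERD 1, BLD 1, BLD 2, BLD 3 or BLD 5, 2 without ERD 3, and 1 without ERD 4 or BLD 4. The 3 without ERD 1 included Ctsd but not P2ry12, Gpr34, Mertk or Olfml3. Adjusted calls appeared for 1 gene without ERD 1 (Ctss) and for 1 without ERD 5 (Ctsd), both in ERD against STD.

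**Figure D1:**
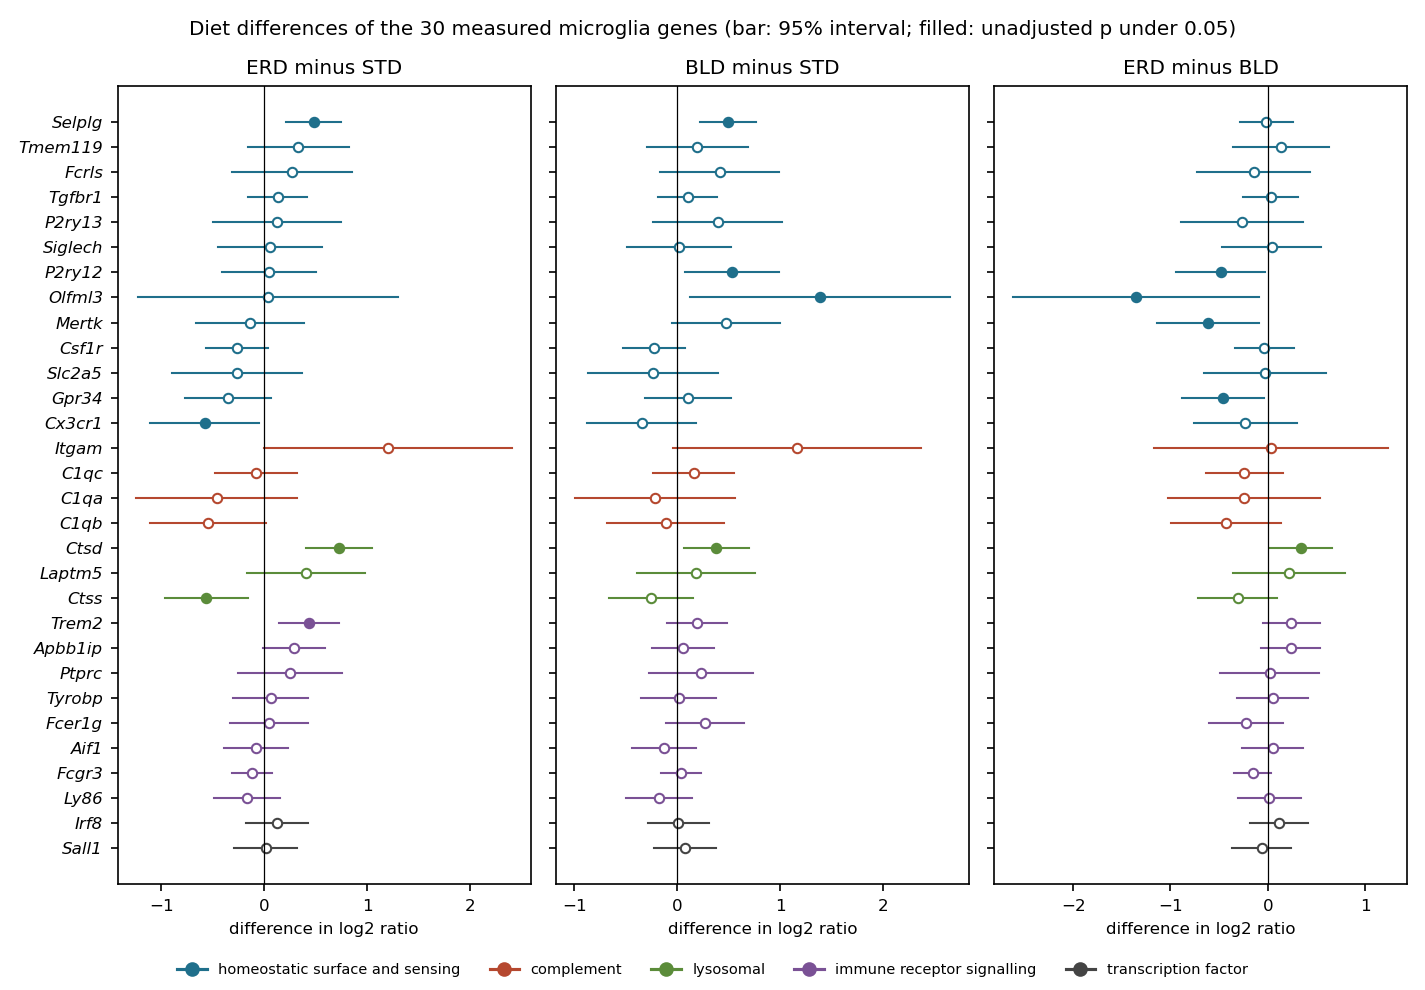
Differences in log2 ratio (horizontal axis) of the 30 measured microglia genes for ERD minus STD, BLD minus STD and ERD minus BLD, coloured by role, with 95% intervals from the limma fit and filled points where the unadjusted p was under 0.05. Ctsd at 0.72 lies farthest from 0 relative to its interval in ERD minus STD, and Olfml3 at 1.39 and Itgam at 1.17 have the widest intervals in BLD minus STD.

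As a group the genes were spread on both sides of 0. The median difference of the 30 genes was 0.05 in ERD against STD (all genes 0.01), 0.10 in BLD against STD (all genes 0.05) and -0.03 in ERD against BLD (all genes -0.04). In ERD 18 of 30 were higher than in STD (60%, against 52.7% of all genes). In BLD 22 of 30 were (73.3%, against 60.1%). In ERD 13 of 30 were higher than in BLD (against 42% of all genes). The median of ERD against STD was -0.12 with the deposited ratios (all genes -0.04), that of BLD against STD was -0.05 from Cy5 alone (all genes -0.015), and that of ERD against BLD was 0.10 from Cy5 alone (all genes 0.008). Each of the 3 medians thus had the opposite sign under 1 of these scalings, and so did the median of all genes.

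The largest group, 13 genes of the resting and sensing surface, had a median of 0.05 in ERD against STD (all genes 0.01), 0.19 in BLD against STD (all genes 0.05) and -0.145 in ERD against BLD (all genes -0.04). From Cy5 alone these medians were 0.05, 0.04 and 0.12, so that of ERD against BLD had the other sign in the hemibrain channel. In BLD 10 of the 13 were higher than in STD (60.1% of all genes were), and 3 of them (Selplg, P2ry12 and Olfml3) had an unadjusted p under 0.05, against 7.6% of all genes on that side. In ERD 3 of the 13 were higher than in BLD (42% of all genes were) and 10 lower, 4 of the latter (P2ry12, Gpr34, Mertk and Olfml3) with an unadjusted p under 0.05, against 7.77% of all genes on that side. All 4 of these were not well above background on ERD 1, and for each of them ERD 1 held the lowest value of the 15 arrays. Without ERD 1, ERD against BLD was -0.34 for P2ry12, -0.365 for Gpr34, -0.47 for Mertk and -0.95 for Olfml3. All 4 then had an unadjusted p above 0.05 in limma. None passed an adjusted p of 0.05.

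Selplg encodes PSGL-1, a mucin-like ligand of selectins that microglia carry at rest. Its ratio in ERD was 0.83, 1.27, 1.09, 0.97 and 1.04 on arrays 1 to 5. In BLD it was 1.05, 0.76, 1.05, 1.07 and 1.33, and in STD 0.69, 0.57, 0.79, 0.28 and 0.47. All 5 ERD arrays lay above all 5 STD arrays, while the lowest BLD array overlapped STD. Such separation of ERD from STD was seen for 2 of the 30 genes, Selplg and Ctsd, and for 3.77% of all genes, while 0 of the 30 separated in BLD against STD (2.86% of all genes) or in ERD against BLD (1.37%). The difference was 0.48 ± 0.13 (SE) in ERD against STD (1.39-fold, adjusted p = 0.13 in limma) and 0.49 ± 0.13 in BLD against STD (adjusted p = 0.256 in limma). The reference channel differed too. Cy3 alone was at -0.33 in ERD and -0.58 in BLD relative to STD, and Cy5 alone at 0.22 and -0.06, so the BLD difference was not seen in the hemibrain channel. With slide as a fixed block the differences were 0.66 and 0.82, and on slide 7 they were 0.77 and 1.06. The other Selplg probe gave 0.00 for ERD and 0.09 for BLD, both against STD.

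P2ry12 encodes the ADP receptor that steers microglial processes towards injured cells. Its ratio in BLD was 1.03, 1.23, 1.44, 1.66 and 1.10 on arrays 1 to 5. In STD it was 0.73, 1.29, 0.79, 0.69 and 0.32, and in ERD 0.25, 1.06, 0.46, 0.88 and 1.40. BLD arrays were high as a group, but STD 2, ERD 2 and ERD 5 reached into their range. The difference was 0.53 ± 0.22 (SE) in BLD against STD (1.45-fold, adjusted p = 0.444 in limma) and -0.48 ± 0.22 in ERD against BLD (adjusted p = 0.471 in limma). From Cy5 alone these were 0.13 and -0.08, and with a smaller background offset of 1 they were 1.11 and -0.77. The reference signal of P2ry12 was above background on no array, and the part of this in the result was not tested. On slide 7, which held all 3 diets, ERD was 0.30 above BLD.

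Gpr34, a receptor for lysophosphatidylserine, was measured in ERD at 0.22, 1.07, 0.36, 0.53 and 0.76 on arrays 1 to 5. Its values were 0.59, 0.71, 1.32, 1.26 and 1.34 in BLD and 0.62, 1.10, 0.72, 0.93 and 1.33 in STD. Both groups overlapped, with 3 BLD arrays above every ERD array. ERD against BLD was -0.46 ± 0.20 (SE, 1.37-fold lower, adjusted p = 0.46 in limma), and -0.13 from Cy5 alone. Within slides 1, 3 and 7 it was -0.49, -0.37 and -0.57.

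Mertk encodes a receptor kinase for the engulfment of dying cells, which binds them through Gas6 and protein S. Its ratio was 0.15, 1.35, 0.43, 0.54 and 1.17 in ERD, 1.52, 1.19, 0.87, 1.78 and 1.33 in BLD, and 0.69, 1.53, 0.50, 0.95 and 0.64 in STD. In 3 ERD arrays the value lay below every BLD array, and ERD 2 and ERD 5 lay within the BLD range. ERD against BLD was -0.61 ± 0.25 (SE, 1.53-fold lower, adjusted p = 0.445 in limma). Within slides 1, 3 and 7 it was -0.49, -1.37 and -0.16, and from Cy5 alone -0.28.

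Olfml3, a secreted glycoprotein found in microglia but also made by vessel and connective tissue cells, had the widest spread of the group. Its ratio ran from 0.01 on ERD 1 to 4.30 on BLD 4. The 5 arrays were at 0.01, 0.73, 1.48, 2.80 and 3.18 in ERD, 2.55, 3.81, 2.49, 4.30 and 1.83 in BLD, and 1.80, 2.30, 1.20, 2.17 and 0.57 in STD. BLD was 1.39 ± 0.59 (SE) above STD (2.62-fold, adjusted p = 0.446 in limma), and ERD was -1.36 ± 0.59 against BLD (adjusted p = 0.464 in limma). These differences moved with the slides. With slide as a block they were 0.06 and -0.61, and on slide 7 they were -0.34 and 1.35. The second Olfml3 probe differed less between arrays and gave 0.54 in BLD against STD (adjusted p = 0.182 in limma with that probe in its place) and -0.29 in ERD against BLD.

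Cx3cr1, the receptor of the neuronal chemokine fractalkine, was measured at 4.36, 3.92, 2.93, 2.96 and 3.43 in ERD. It was at 3.58, 3.45, 4.40, 3.57 and 3.76 in BLD and at 4.01, 4.21, 4.28, 3.88 and 4.11 in STD. The STD arrays lay close together, while ERD ranged from well below them to the highest STD level and above, on ERD 1. ERD against STD was -0.58 ± 0.25 (SE, 1.49-fold lower, adjusted p = 0.305 in limma). It was -0.14 from Cy5 alone, and the other probes of the gene gave -0.09 and -0.23.

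The remaining 7 genes of this group had unadjusted p above 0.05 in every comparison of the ratios. They were P2ry13, another ADP receptor; Csf1r, the growth factor receptor on which microglia depend for survival; Tgfbr1, the TGF-beta receptor kinase; Siglech, a sialic acid-binding lectin; Fcrls, an Fc receptor-like protein; Tmem119, a membrane protein specific to microglia in the brain; and Slc2a5, a fructose transporter. In ERD against STD they lay between -0.27 (Slc2a5) and 0.33 (Tmem119), and in BLD against STD between -0.24 (Slc2a5) and 0.41 (Fcrls). From Cy5 alone Fcrls was at 0.40 in ERD against STD (unadjusted p = 0.00321 in limma). Against BLD it was at 0.28 from Cy5 alone (unadjusted p = 0.0252 in limma), where its ratio gave -0.145. Csf1r was at -0.43 in BLD against STD from Cy5 alone (unadjusted p = 0.0442 in limma). For Csf1r the 95% interval of ERD against STD ran from -0.56 to 0.04, and for Tmem119 from -0.16 to 0.82, so differences within these intervals could not be told from 0.

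**Figure D2:**
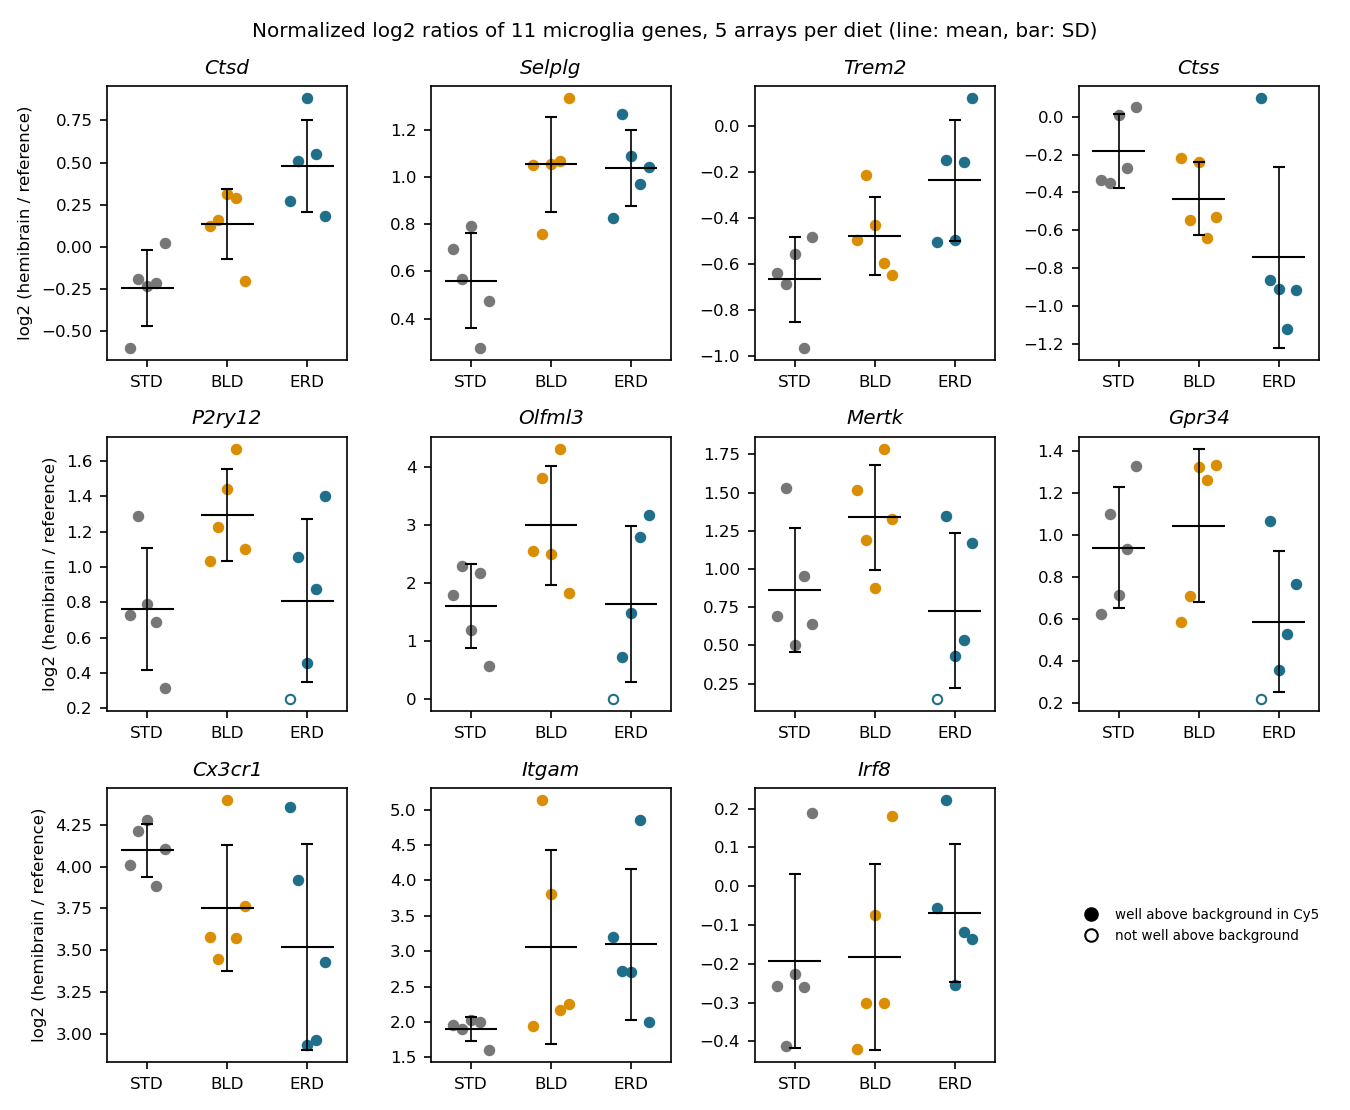
Normalized log2 ratios of hemibrain to reference (vertical axis, scaled per gene) on each of the 5 STD, 5 BLD and 5 ERD arrays for 11 microglia genes, with the mean as a line and the SD as a bar, and open circles for arrays not well above background in Cy5. The ERD arrays of Ctsd lie between 0.18 and 0.88, above all STD arrays, whereas those of Ctss lie below all STD arrays except for ERD 1 at 0.10.

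The complement group held the 3 chains of C1q, which starts the classical pathway and is made in the brain mainly by microglia, and Itgam, the alpha chain of complement receptor 3. None of the 4 had an unadjusted p under 0.05. C1qb was at -0.54 ± 0.27 (SE) in ERD against STD (adjusted p = 0.36 in limma), C1qa at -0.46 ± 0.37 and C1qc at -0.08 ± 0.19. In STD the C1qb arrays lay between 1.88 and 2.22, and in ERD between 0.59 on ERD 1 and 2.43. ERD 1 was the lowest of all 15 arrays for each of the 3 chains, at 0.70 for C1qa, 0.59 for C1qb and 1.84 for C1qc. Without ERD 1, an alternative chosen after seeing the data, ERD against STD was -0.08 for C1qa, -0.31 for C1qb and 0.10 for C1qc. In BLD against STD the 3 chains were at -0.22, -0.11 and 0.16.

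Itgam was measured in ERD at 3.20, 2.73, 2.70, 4.85 and 1.99, in BLD at 1.95, 5.13, 3.82, 2.17 and 2.26, and in STD at 1.96, 1.90, 2.03, 2.0 and 1.60. The STD arrays were tight, and the 3 highest values were those of ERD 4, BLD 2 and BLD 3, the 3 arrays of slide 1, which were scanned on the later day. ERD against STD was 1.20 ± 0.57 (SE, 2.29-fold, adjusted p = 0.345 in limma), 0.76 without ERD 4, 0.62 with slide as a block and -0.005 on slide 7. The other Itgam probe above background, far dimmer (mean processed Cy5 intensity 140 against 95480), gave 0.01. The part of slide and scan day in the result was not tested beyond these values.

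Of the 5 lysosomal genes 3 were measured, and none passed the threshold. The means of Ctsd and Laptm5 were higher and that of Ctss lower in ERD than in STD. Ctsd encodes cathepsin D, the main aspartic protease of lysosomes, which neurons also make in large amounts. Its ratio in ERD was 0.27, 0.51, 0.88, 0.55 and 0.18 on arrays 1 to 5. In BLD it was 0.12, 0.16, 0.32, 0.29 and -0.20, and in STD -0.60, -0.19, -0.23, -0.21 and 0.02. All ERD arrays were above all STD arrays, and the BLD mean of 0.14 ± 0.21 lay between those of STD (-0.24 ± 0.22) and ERD (0.48 ± 0.27, SD, n = 5). ERD against STD was 0.72 ± 0.15 (SE, 1.65-fold, adjusted p = 0.0631 in limma), the lowest p of the 30 genes. BLD against STD was 0.38 (adjusted p = 0.435 in limma) and ERD against BLD 0.34 (adjusted p = 0.464 in limma).

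The Ctsd difference lay in the hemibrain channel, with Cy5 alone at 0.65 and Cy3 alone at -0.01 between ERD and STD. Within slides 4, 5 and 7 it was 0.70, 1.48 and 0.40. It passed the threshold without ERD 5 (0.80, adjusted p = 0.0467), with slide as a random block (0.73, adjusted p = 0.0405) and with array weights (0.78, adjusted p = 0.0283), all in limma. It did not with slide as a fixed block (0.81, adjusted p = 0.446) or when scan day was blocked (0.68, adjusted p = 0.105). Over all alternatives its adjusted p ran from 0.0283 to 0.642. The second Ctsd probe, with a mean processed Cy5 intensity of 507 against 29770, did not share the direction. It gave -0.34 for ERD and -0.39 for BLD, both against STD, and the 2 probes therefore disagreed on the gene.

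Ctss encodes cathepsin S, a cysteine protease that in the brain is largely limited to microglia. It was measured in ERD at 0.10, -0.86, -0.91, -1.12 and -0.92. In BLD it was at -0.22, -0.54, -0.24, -0.64 and -0.53, and in STD at -0.33, -0.35, 0.01, -0.27 and 0.05. All ERD arrays but ERD 1 lay below every STD and BLD array, and ERD 1 lay above all of them. ERD against STD was -0.56 ± 0.19 (SE, 1.48-fold lower, adjusted p = 0.211 in limma). Without ERD 1 it was -0.77 (adjusted p = 0.0231 in limma), and with the number of spots above background as a covariate -0.74 (adjusted p = 0.0296 in limma). Its adjusted p ran from 0.0231 to 0.471 over all alternatives. Cy5 alone gave -0.55 and Cy3 alone -0.05, and slides 4, 5 and 7 gave -0.51, -0.58 and -0.64. Laptm5, a lysosomal membrane protein of blood-derived cells, was at 0.40 ± 0.27 (adjusted p = 0.503 in limma), and its other probe at 0.31.

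**Figure D3:**
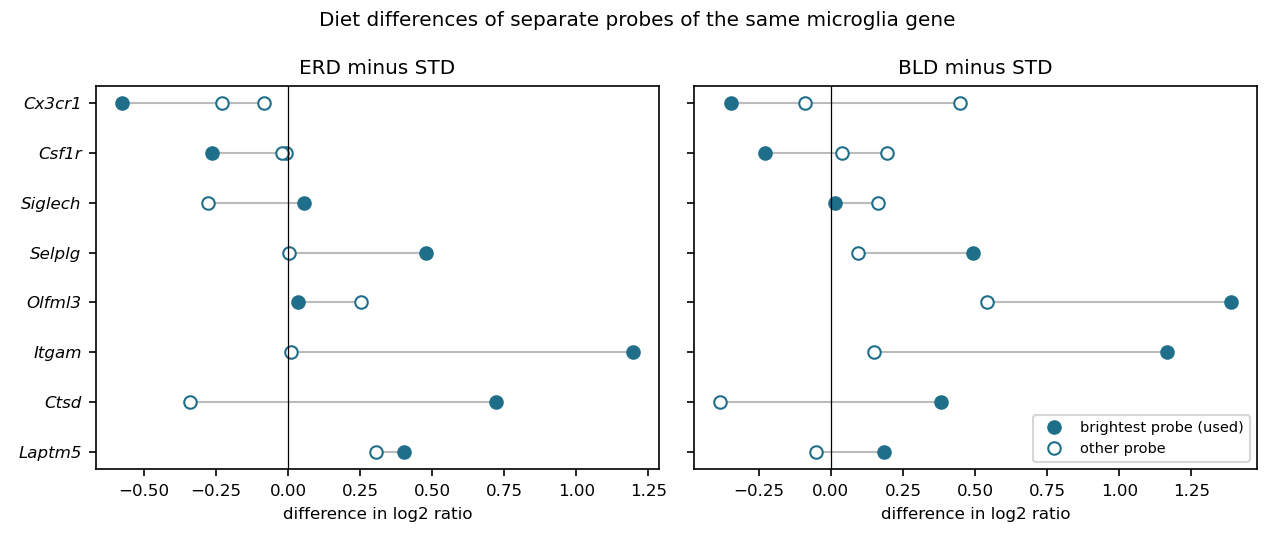
Differences in log2 ratio (horizontal axis) of ERD minus STD and BLD minus STD for the 8 microglia genes with more than 1 probe above background, with the brightest probe filled and the others open. The 2 Ctsd probes lie on opposite sides of 0 in both panels (0.72 and -0.34 in ERD minus STD), while both Laptm5 probes are above 0 in ERD minus STD.

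Of the 9 genes of immune receptors and their signalling, 8 were measured, with a median of 0.05 both for ERD against STD and for BLD against STD. Trem2, a lipid-sensing receptor that drives phagocytosis and lipid handling, was the 1 gene of the group with an unadjusted p under 0.05. Its ratio in ERD was -0.51, -0.15, -0.50, -0.16 and 0.12. In BLD it was -0.50, -0.22, -0.43, -0.60 and -0.65, and in STD -0.64, -0.69, -0.56, -0.97 and -0.49. In ERD 2, ERD 4 and ERD 5 it lay above every STD array, and ERD 1 and ERD 3 lay within the STD range. ERD against STD was 0.43 ± 0.14 (SE, 1.35-fold, adjusted p = 0.189 in limma), with Cy5 alone at 0.35 and Cy3 alone at -0.05. Within slides 4, 5 and 7 it was 0.54, 0.15 and 1.08.

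The signalling partners of Trem2 lay nearer to 0. Tyrobp, the adaptor that carries the Trem2 signal, was at 0.06 ± 0.17 (SE) in ERD against STD (95% interval -0.30 to 0.42), and Fcer1g, the adaptor of Fc receptors, at 0.04 ± 0.18. Whether Trem2 and Tyrobp differed from each other was not tested. Apbb1ip, an adaptor of integrin activation, was at 0.29 ± 0.14 (adjusted p = 0.359 in limma), and its highest value (-1.27) was on ERD 1, where it was not above background. Aif1 (IBA1), the actin-binding protein used to stain microglia, was at -0.08 ± 0.15 (95% interval -0.39 to 0.23), Ly86 at -0.17 ± 0.15 and Ptprc (CD45) at 0.25 ± 0.24. Fcgr3, an Fc receptor for IgG, was at -0.12 ± 0.09 and was above background on 1 ERD array, 4 BLD arrays and 4 STD arrays.

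Of the 3 transcription factors Irf8 and Sall1 were measured. Irf8, which microglia need to form and to become reactive, was at -0.06, 0.22, -0.26, -0.12 and -0.14 in ERD. It was at -0.42, -0.30, -0.07, -0.30 and 0.18 in BLD and at -0.26, -0.41, -0.23, -0.26 and 0.19 in STD. The 3 diets overlapped over nearly their whole range. ERD against STD was 0.12 ± 0.14 (SE, adjusted p = 0.704 in limma). Sall1, a zinc finger factor that in adult brain marks microglia, was at 0.01 ± 0.14 for ERD and 0.08 ± 0.14 for BLD, both against STD.

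Within a diet the genes did not vary as one block. With the diet means removed, the median Pearson r over the 435 pairs of the 30 genes across 15 arrays was 0.02, and 52% of pairs were positive. Among the 78 pairs of surface genes it was 0.12. Some genes did go together, with r of 0.88 for Gpr34 and Slc2a5, 0.83 for P2ry13 and Gpr34 and 0.80 for Slc2a5 and Sall1. In the reference channel Gpr34 and P2ry13 were above background on 0 of 15 arrays, Slc2a5 on 8 and Sall1 on 11. The part of this weak Cy3 signal in their correlations was not tested. Other genes ran against each other, with r of -0.83 both for C1qc and Fcgr3 and for C1qa and Apbb1ip, and -0.82 for Siglech and Irf8. Without ERD 1 these were -0.81, -0.66 and -0.82. Among the 6 pairs of complement genes the median was 0.30, and -0.01 without ERD 1. For comparison it was 0.25 among 16 activated microglia genes and 0.14 among 12 neuron markers. All values of an array share its labelling, its dye balance and its depth, and these correlations are a description only.

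**Figure D4:**
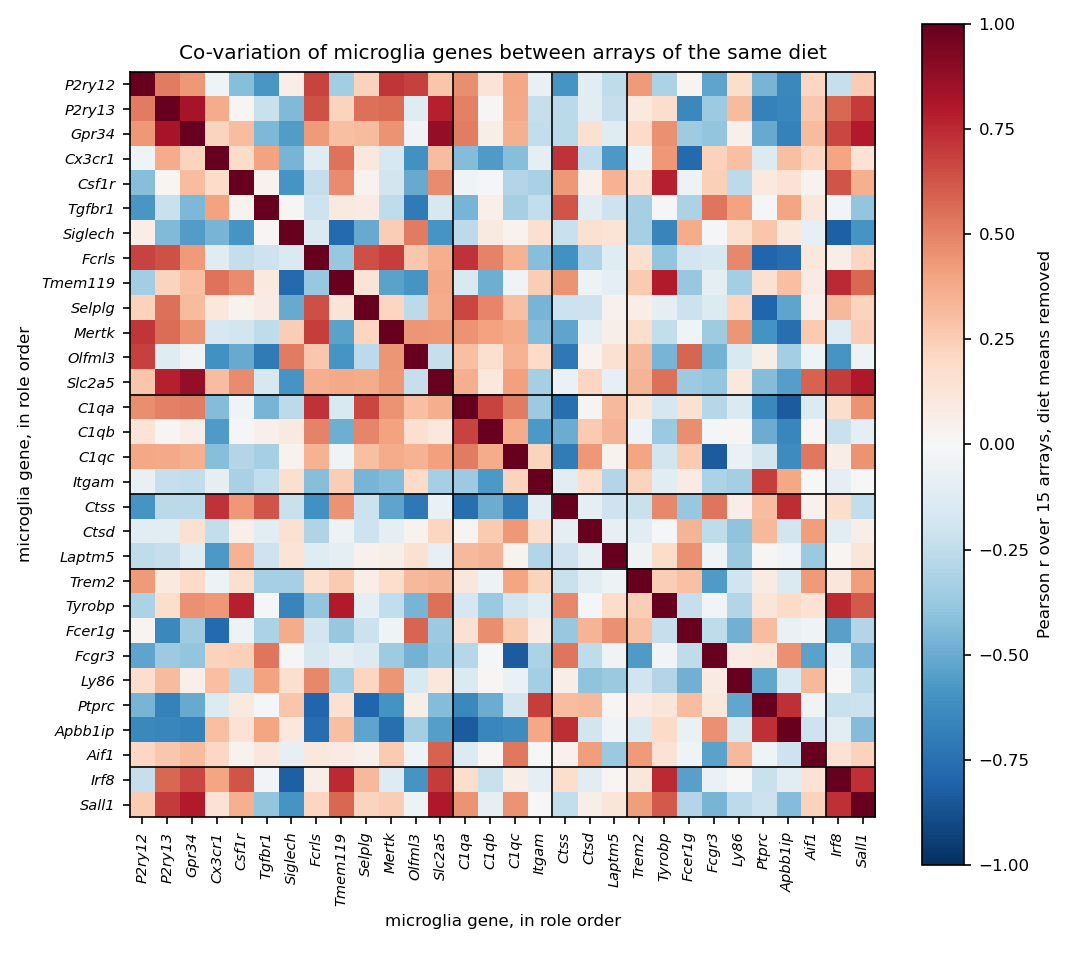
Pearson r between each pair of the 30 measured microglia genes (both axes, ordered by role) across 15 arrays after removal of diet means, with red for positive and blue for negative r, and black lines between the role groups. Positive pairs such as those among Gpr34, P2ry13, Slc2a5 and Sall1 (r up to 0.88) occur along with negative pairs such as Apbb1ip with C1qa (-0.83, and -0.66 without ERD 1).

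None of the other microglial, complement and lysosomal genes examined had an adjusted p under 0.05 in limma as fitted, while with array weights Cd200 (-1.25, adjusted p = 0.0283) and Cd52 (0.49, adjusted p = 0.0477) passed in ERD against STD. Among 9 ligands that act on microglial receptors, Cd200, the neuronal ligand that restrains microglia, was at -1.21 ± 0.30 (SE) in ERD against STD (adjusted p = 0.107 in limma), from 4.12 ± 0.32 in STD to 2.91 ± 0.74 in ERD (SD, n = 5). Gas6, the ligand of Mertk and Axl, was at -0.40 in BLD against STD (adjusted p = 0.423 in limma). Of 10 measured complement genes outside the list, 9 were higher in ERD than in STD (52.7% of all genes were). Their median was 0.19 (all genes 0.01), and 0.04 from Cy5 alone. In ERD against STD 0 of the 10 had an unadjusted p under 0.05 (14.6% of all genes did). In BLD against STD 1 did (10.7% of all genes), C3 at 0.66 (adjusted p = 0.446 in limma). C4b was at 0.36 in ERD against BLD (-0.085 on slide 7). Among 28 further microglia genes, 20 were higher in ERD than in STD (71.4%, against 52.7% of all genes), with a median of 0.16 (all genes 0.01) that was 0.006 from Cy5 alone. In BLD 20 of these 28 were higher than in STD as well (against 60.1% of all genes). Was (0.40 in ERD against STD, adjusted p = 0.275 in limma) and Rhoh (0.60 in BLD against STD, adjusted p = 0.423 in limma) had the lowest p in the F test.

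Among 16 measured genes of activated microglia, 2 were higher and 2 lower at an unadjusted p under 0.05 in ERD against STD, against 6.92% and 7.64% of all genes. Cd52, a small surface glycoprotein of immune cells, was at 0.45 ± 0.11 (SE, adjusted p = 0.107 in limma), and Timp2, a metalloprotease inhibitor that other brain cells make as well, at -1.16 ± 0.28 in BLD against STD (adjusted p = 0.22 in limma), where the dimmest probe of the gene gave 0.16. A further 23 lysosomal genes, among them Ctsb and Ctsz of the activated list, had a median of -0.04 in ERD against STD, with 10 higher and 13 lower and single genes from -0.58 to 0.39. Mcoln1, the lysosomal calcium channel, was at -0.58 in ERD against STD (adjusted p = 0.217 in limma) and Npc1, a lysosomal cholesterol transporter, at -0.26 in ERD against BLD (adjusted p = 0.438 in limma).

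The mean level of the 30 genes on each array, relative to each gene's mean over the 15 arrays, was -0.07 ± 0.05 in STD, 0.10 ± 0.07 in BLD and -0.03 ± 0.13 in ERD (SD, n = 5). It ranged from -0.13 to -0.01 in STD, from -0.002 to 0.19 in BLD and from -0.21 on ERD 1 to 0.12 on ERD 2. Of all genes, 60.1% were higher in BLD than in STD too, with a median difference of 0.05. From Cy5 alone the median difference of the 30 genes between BLD and STD was -0.05. Levels of other cell types moved with the arrays as well. The 12 neuron markers were at -0.85 on ERD 1 and between -0.22 and 0.36 on all other arrays, and the 12 oligodendrocyte markers at -0.63 on ERD 1 and between -0.17 and 0.19 elsewhere. Of macrophages at the brain borders 5 of 9 markers were measured (Cd163, Lyve1 and Ccr1 were above background on 0 of 15 arrays and Ms4a7 on 4), with levels from -0.08 to 0.28 in ERD and -0.29 to 0.10 in STD. Of 16 blood leukocyte markers 6 were measured, from -0.16 to 0.32 in ERD, -0.14 to 0.34 in BLD and -0.23 to 0.00 in STD. The 6 measured were Cd3e, Cd4, Cd79b, S100a9, Camp and Nkg7, which include T cell and B cell genes. Others of the list, such as Cd8a, Ms4a1 and Ccr2, were above background on 0 of 15 arrays. The part of these markers in the values of the microglia genes was not tested.

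**Figure D5:**
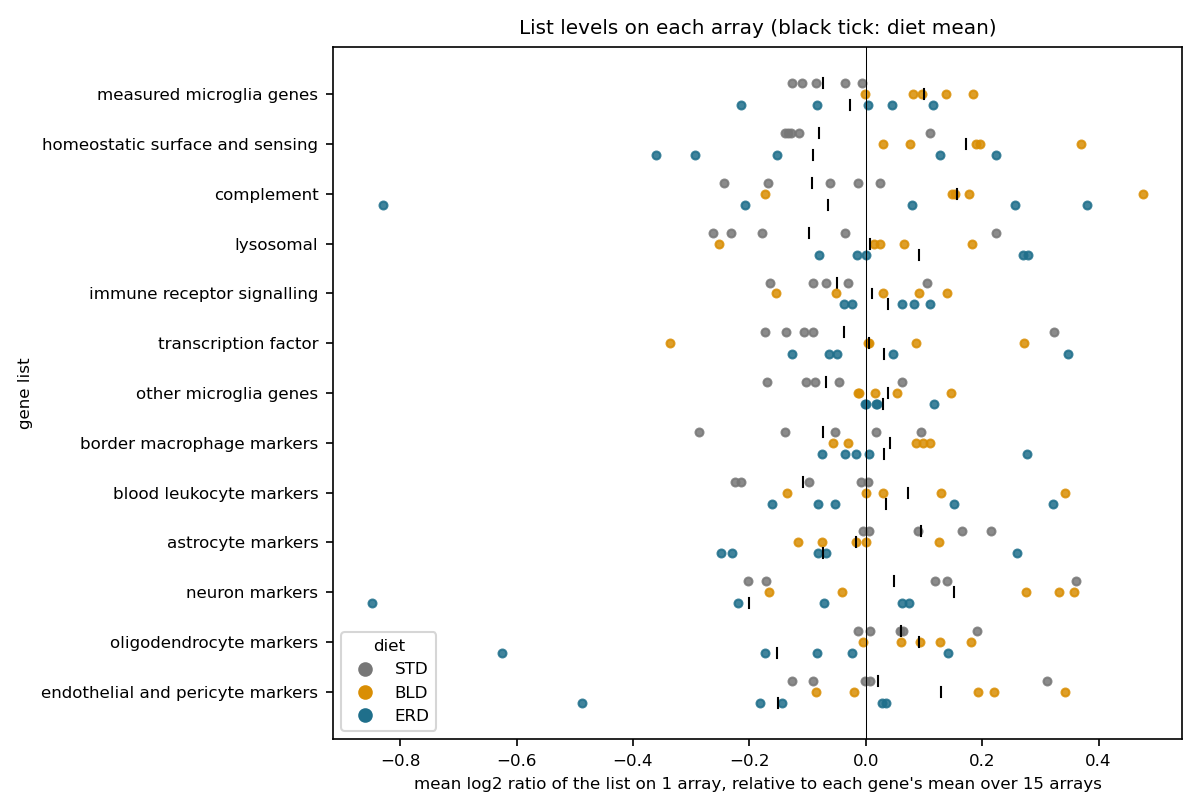
Mean log2 ratio of each gene list on each array, relative to each gene's mean over 15 arrays (horizontal axis), with 1 point per array, colours for STD, BLD and ERD and a black tick at the diet mean. The measured microglia genes lie between -0.21 and 0.19, and the neuron, oligodendrocyte and endothelial lists have their lowest point on ERD 1.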

How the data were processed

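Left hemibrain RNA (Cy5) and a reference pool (Cy3) were compared on 15 Agilent arrays, 5 per diet, with the diet of each sample as its group. The deposited scanner files hold spot intensities, as median pixel intensities of spot and local background in each channel, per the file headers. The log10 ratios deposited by the authors equalled those of the scanner files (largest difference 5e-10), had a median of 0 on every array, were background-subtracted and dye-normalized per the file headers, and were exactly 0 for 16.5% to 37.8% of the spots on an array. The file headers name Agilent Feature Extraction 11.5.1.1 as the scanner software, and the submitters' processing notes its version 10.7.

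Median intensities were corrected with normexp (offset 50) and loess-normalized within arrays in limma 3.58.1 under R 4.3.3, with control spots at weight 0 and outlier-marked spots (0.57%) left out. The mean over a probe's spots was used, and a probe was kept with at least 8 values and a Cy5 signal well above background on at least 5 arrays. Each symbol kept its brightest probe, and each probe without a symbol entered as a gene of its own. One limma model over 15 arrays (12 residual degrees of freedom) gave 3 diet comparisons and an F test, with 2-sided p and Benjamini-Hochberg adjustment over 22557 genes. Precision is limited by the number of arrays, with a median SE of 0.16 for ERD against STD. The orientation of the dyes was the same on all arrays, so a dye effect is shared by them. Tested on simulated arrays for ERD against STD (22385 genes, 50 changed per size), the fit recovered 22%, 78%, 84% and 100% of log2 changes of 0.5, 1, 1.5 and 2. The simulated noise was independent between genes and arrays, without effects of slide or scan day, so recovery on the real arrays may differ.

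Values on every array are given for each microglia gene with an unadjusted p under 0.05 in any comparison or the F test and for the gene of lowest F test p in each role group. From other lists, with no gene past the threshold, the 2 of lowest F test p are named. The genes, lists and role groups were chosen with earlier results of these data known. Each array was left out in turn, and 21 other settings were tried. The data.table package (version 1.17.8), Python 3.11.15, pandas 2.3.3 and matplotlib 3.10.9 were used. MicroRNA and DNA methylation data were not used here.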

Additional observations from a re-analysis of the deposited data

Results flagged for a closer look

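In 7 of the 90 sets of 5 arrays (30 genes in 3 diets), 1 array lay far from the other 4 by Dixon's criterion (critical value 0.71 of the range). Chance gives this in about 1 of 20 sets. Array STD 5 accounted for 3 of the 7. On it Tyrobp was at 0.743, with the nearest STD array at -0.086, Fcrls at 0.868 (nearest 1.579) and Sall1 at 1.02 (nearest 0.639). P2ry13 was at 1.466 on STD 2 (nearest 1.03), and Tgfbr1 at -0.321 on STD 1 (nearest -0.521). Sall1 was at 0.31 on BLD 1, where it was not well above background (nearest 0.809). Ctss was at 0.096 on ERD 1 (nearest -0.861), the array with the fewest spots above background, and it is the 1 of the 7 on which a call in the comparisons above turned.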

How the results depend on the processing

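The 16 differences of named microglia genes were also computed under up to 36 other settings, of which 15 leave out 1 array. The cause of the changes below was not tested unless the setting itself removes arrays, genes or probes. In limma the genes called in ERD against STD, 49 as reported, numbered 32 with probes above background on all arrays, 29 with the median over probes, 31 with the dimmest probe, 23 with only 2 diets in the fit, 1 with slide and 11 with scan day as fixed blocks, 101 with slide as a random block, 128 with array weights, 89 with Cy5 detection as a covariate, and 5 to 170 with 1 array left out. In BLD against STD (2 as reported) they numbered 1 with offset 1, deposited ratios, no background correction, scale normalization, 2 diets or scan day, 5 with no filter or with all arrays above background, 0 with slide fixed, 6 with slide random, 19 with array weights, and 1 to 8 with 1 array left out. In ERD against BLD (0 as reported) they numbered 1 with 2 diets or slide fixed, and 0 to 1 with 1 array left out. The F test, with 11 as reported, gave 1 with offset 1, deposited ratios or slide fixed, 2 with no background correction, 20 from Cy5 alone or with scale normalization, 3 with scan day, 45 with slide random, 50 with array weights, 52 with the covariate, and 2 to 27 with 1 array left out. Microglia genes called in ERD against STD numbered 1 with slide random (Ctsd), array weights (Ctsd) or the covariate (Ctss), and 0 to 1 with 1 array left out, and 0 under all settings run for the other comparisons.

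The median of the microglia genes in ERD against STD was -0.118 with deposited ratios and 0.299 and 0.151 within slides 4 and 7. In BLD against STD it was 0.001 with deposited ratios, -0.054 from Cy5 alone, 0.283 with slide fixed and 0.216 within slide 7. In ERD against BLD it was 0.083 with offset 1, 0.097 from Cy5 alone, 0.096 with scale normalization, -0.132 with slide fixed and -0.137 within slides 1 and 7. With 1 array left out these medians ran from -0.014 to 0.079, 0.085 to 0.191 and -0.120 to -0.018. Signs turned for Ctsd with the dimmest probe (-0.341 in ERD against STD, -0.385 in BLD against STD) and with the median over probes (-0.002 in BLD against STD), for Selplg (-0.057) and Cbr2 (-0.219) from Cy5 alone in BLD against STD, for Gfap in BLD against STD (-0.074) and Alas2 in ERD against BLD (0.053) with deposited ratios, and for Timp2 with the dimmest probe (0.158 in BLD against STD). Within single slides, where no test was possible, signs also turned in ERD against STD for Itgam (-0.005) and Cd79b (-0.182) on slide 7 and for Stab1 (-0.496) and Vwf (-0.147) on slide 5, in BLD against STD for Olfml3 (-0.341) on slide 7, and in ERD against BLD for P2ry12 (0.302), Olfml3 (1.352) and C4b (-0.085) on slide 7. No paired analysis was possible because array numbers follow accession order and pair no animals across diets; arrays that share a slide were compared through the slide blocks and within slides.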

Other observations

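Markers of other cell types, none of which had an adjusted p under 0.05 in limma, gave several differences wider than those of most microglia genes. Of all genes, 52.7% were higher in ERD than in STD, 60.1% in BLD than in STD and 42% in ERD than in BLD. The medians of all genes were 0.01, 0.05 and -0.04. Gfap, the intermediate filament of astrocytes, was at 1.12 ± 0.27 (SE) in BLD against STD (adjusted p = 0.22 in limma) and Aldoc, an astrocytic glycolytic enzyme, at -0.73 ± 0.17 (adjusted p = 0.184 in limma). Of the 12 astrocyte markers 10 were lower in ERD than in STD, with a median of -0.25. The 12 oligodendrocyte markers were split, with 6 higher and 6 lower in BLD than in STD (median 0.08), and 9 were lower in ERD than in BLD (median -0.18). Mag, a myelin adhesion protein, was at -0.66 ± 0.14 in BLD against STD (adjusted p = 0.168 in limma), and Cldn11, a tight junction protein of myelin, at -1.24 ± 0.39 in ERD against BLD (adjusted p = 0.348 in limma). Of the 12 neuron markers 8 were lower in ERD than in BLD (median -0.06), and 7 were higher and 5 lower in BLD than in STD (median 0.06). Map2 was at -1.98 ± 0.67 in ERD against BLD (adjusted p = 0.389 in limma), and at -1.20 without ERD 1. Syt1 was at -1.05 ± 0.37 in BLD against STD (adjusted p = 0.409 in limma), against the median of its list.

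Of 11 measured vessel markers 9 were lower and 2 higher in ERD than in STD (52.7% of all genes were higher). Their median was -0.28, and -0.08 from Cy5 alone. Their level was -0.49 on ERD 1 and between -0.18 and 0.03 on the other ERD arrays. Vwf was 1 of the 2 higher genes, at 0.60 ± 0.20 (adjusted p = 0.195 in limma) and -0.15 within slide 5. Cdh5 was at -0.75 ± 0.24 in ERD against BLD (adjusted p = 0.358 in limma). The red cell genes Hbb-b1 and Alas2 were at -1.22 ± 0.36 and -0.84 ± 0.29 in ERD against BLD (adjusted p = 0.331 and 0.401 in limma). All 6 measured red cell markers were lower in ERD than in BLD, where 42% of all genes were higher. The red cell level ranged from -0.50 to 0.75 over the 5 BLD arrays. Among border macrophage and leukocyte genes, Stab1 was at 0.25 and Cd79b at 0.30 in ERD against STD, and Cbr2 at 0.17 and S100a9 at 0.44 in BLD against STD (adjusted p from 0.446 to 0.709 in limma).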
